A study of Bos grunniens and Bos grunniens x Bos taurus with 2 samples.

Results

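The cells described here are labelled interstitial stromal cells of yak and cattle-yak testis, a name for the fibroblast-type cells between the seminiferous tubules. They were selected on measured values in single-cell RNA sequencing data, and their place in the tissue was not seen. A cell was taken when features outside the nuclear annotation, which are mitochondrial, held under 30% of its unique molecular identifiers (UMIs, each standing for 1 captured RNA molecule), when *DCN* and *OGN* together had at least 10 UMIs, and when *ACTA2* had at most 3. Of 20921 cells in the 2 libraries, 2856 met the rule. They were 642 of the 11114 yak cells under the mitochondrial limit (5.776%, exact binomial 95% interval 5.35 to 6.226) and 2214 of the 7620 cattle-yak cells under it (29.06%, interval 28.04 to 30.09).

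The study dissociated testis tissue and sequenced single cells with 10x Genomics chemistry. Its data hold a library of the yak (*Bos grunniens*) and another of the cattle-yak, its cross with cattle (*Bos taurus*). The yak library came from a castrated 4-year-old, sexually mature animal, and the cattle-yak library from an animal described as past sexual maturity, whose age is not given in the sources used here. No allele, transgene or treatment was named for either animal; for the yak testis, the methods describe freezing and thawing, digestion with collagenase, hyaluronidase and trypsin, and straining. A label calls both libraries germ cells, although the tissue was whole testis and no sort was named.

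The yak and the cattle-yak were therefore each represented by 1 library. A difference between the libraries below compares those libraries and not the kinds of animal, no test was possible, and the intervals printed cover counting error only. The shares of cells above count only cells that survived dissociation and capture, and the part of these steps in those shares was not tested.

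The interstitium of the testis holds Leydig cells, vessels, immune cells and a stroma of fibroblast-type cells. These stromal cells make collagens and small proteoglycans, surround the vessels and tubules, and are a source of growth factors and retinoid-handling proteins. The layer directly around each tubule is made of flattened, contractile peritubular cells, which carry smooth muscle actin. *DCN* encodes decorin and *OGN* osteoglycin, small leucine-rich proteoglycans that bind collagen fibrils. *ACTA2* encodes smooth muscle actin, so that its upper limit keeps most contractile cells out. Male cattle-yak are known to be sterile, and in such testes the tubules are poor in germ cells.

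The yak library held 11991 cells and 60816600 UMIs, with a median of 2533 UMIs per cell. The cattle-yak library held 8930 cells and 43774841 UMIs, with a median of 3155. Within the stromal cells the order was the other way round. A yak stromal cell had a median of 4213 UMIs (890 to 24993) and 1461 genes, and a cattle-yak stromal cell 2866 UMIs (621 to 58940) and 962 genes. Shares of cells with a UMI given below are therefore not at equal depth, unless cells are said to be thinned to 2000 UMIs. The median mitochondrial share was 12.73% in the yak stromal cells and 18.95% in the cattle-yak ones. A pair of unnamed features, *ENSBGRG00000010006* and *ENSBGRG00000021408*, together held 13.78% of the UMIs of the yak stromal cells and 17.67% in cattle-yak. All these shares enter the denominator of the scale used below, summed counts per 1000000 UMIs of the same cells (CPM), and counts with these features taken out of the totals are given below. In all, 24 cell barcodes occurred in both libraries, 2 of them among the yak stromal cells and 3 among the cattle-yak ones.

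Some of the selected cells carried markers of another cell type as well. In yak 76 stromal cells (11.84%), and in cattle-yak 166 (7.498%), had at least 5 UMIs over the T and NK cell, blood endothelial, macrophage or germ cell list. They are called mixed cells here. A fixed number of UMIs is reached more easily by deep cells, and by this definition they were deep, with a median of 7050 UMIs in yak and 13692.5 in cattle-yak, and held 22.31% and 28.4% of all UMIs of the stromal cells. In the mixed cattle-yak cells *COL1A2*, a chain of type I collagen, stood at 373.5 CPM against 2230.1 in the others, and *PECAM1*, an endothelial adhesion protein of the lists that define them, at 419.2 against 9.57. In the mixed yak cells *COL1A2* was at 1344.8 against 1948.2 CPM, and *PECAM1* at 483.3 against 15.5. Where the count of genes past the limit in a list of stromal biology changed without the mixed cells, both counts are given below.

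**Figure D1:**
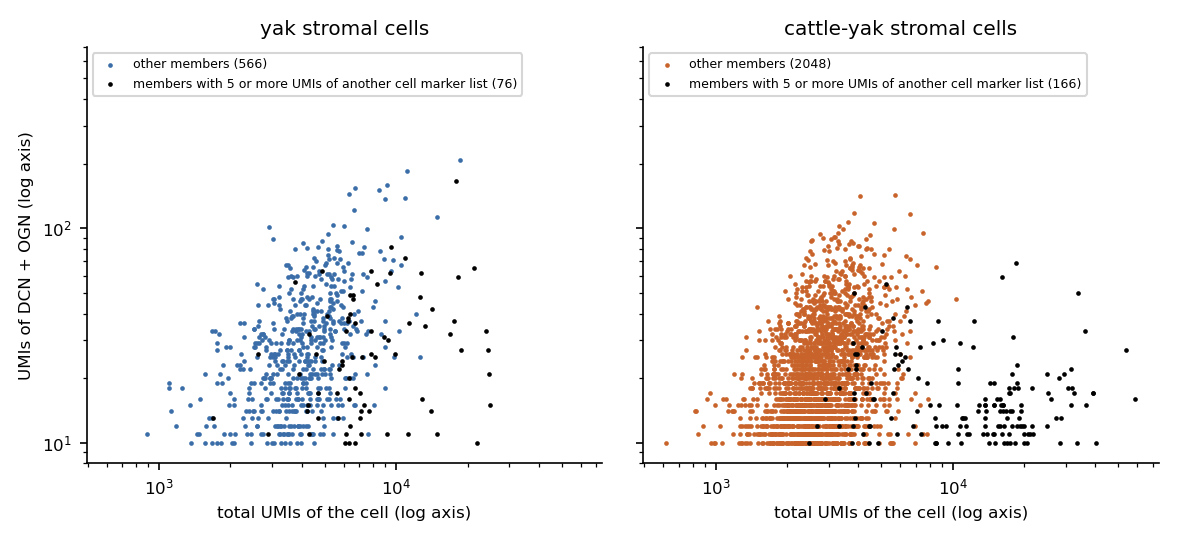
Total UMIs (x axis, log scale) against summed UMIs of DCN and OGN (y axis, log scale) for each stromal cell, with the yak library on the left and the cattle-yak library on the right. Black points are the mixed cells (76 in yak, 166 in cattle-yak), many of which lie at the high end of total UMIs, and coloured points are the other 566 and 2048 cells.

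*DCN* had a median of 8 UMIs per cell in yak and 4 in cattle-yak, and *OGN* a median of 14 in both. No UMI of *DCN* was found in 25 yak cells (3.894%) and 170 cattle-yak cells (7.678%), which met the rule through *OGN* alone. *ACTA2* was at 0 in 457 yak cells (71.18%) and 1730 cattle-yak cells (78.14%). Near the limit the cells graded into one another. In yak, the 55 cells with 10 or 11 UMIs of *DCN* and *OGN* had *COL1A2* at 1107 CPM, and the 59 cells just outside, with 8 or 9, at 625 CPM. In cattle-yak, the 288 cells just inside stood at 1068 CPM and the 294 just outside at 1087 CPM. At the *ACTA2* limit, 26 yak and 51 cattle-yak cells had 3 UMIs, and 28 and 24 cells with 4 UMIs were left out. As a group, the cells that *ACTA2* kept out held more contractile RNA, although those just past the limit in cattle-yak were level with the cells just inside it. Those with at least 10 UMIs of *DCN* and *OGN* but more than 3 of *ACTA2* numbered 532 in yak and 354 in cattle-yak, and had *MYH11*, a smooth muscle myosin, at 3195 and 3318 CPM. In cattle-yak the 24 cells with 4 UMIs of *ACTA2* had *MYH11* at 333 CPM, beside 329 CPM in the stromal cells with 3.

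Markers that the rule did not use were then read, with 2 kinds of contractile cells and a lymphocyte reference beside them. Peritubular-like cells were taken as those with at least 3 UMIs of *PDGFRA* and 10 of *ACTA2* (283 in yak, 88 in cattle-yak). Contractile muscle cells had no UMI of *PDGFRA* and at least 20 over *ACTA2* and *MYH11* (1030 and 866). The reference cells had at least 5 UMIs over *PTPRC* and *NKG7*, genes of blood and cytotoxic cells (1187 and 302). It shared 22 yak and 9 cattle-yak cells with the stromal cells.

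*COL1A2* stood at 1814 CPM in the yak stromal cells and 1703 in the cattle-yak ones, and had a UMI in 92.7% and 94.3% of them. Thinned to 2000 UMIs per cell, it was seen in 81.5% and 86.7% of stromal cells and in 4.5% and 12.2% of reference cells. In peritubular-like cells it stood at 453 CPM in yak and 900 in cattle-yak. *LHX9*, a homeobox transcription factor of the developing gonad, stood at 448 CPM in yak and 382 in cattle-yak stromal cells, and at 55.2 and 82.2 CPM in peritubular-like cells. It had a UMI in 69.8% and 64.9% of the stromal cells, or 49.9% and 53.4% after thinning, beside 1.9% and 3.8% of reference cells. These genes were therefore at similar levels in both libraries. *EFEMP1*, an extracellular matrix glycoprotein of the fibulin family, was not. It stood at 165 CPM in yak and 28.8 in cattle-yak stromal cells, with a UMI in 36.1% and 9.3% of them. After thinning each cell to 2000 UMIs, it was seen in 24.1% and 6.9% of stromal cells and in 0.4% and 0% of reference cells. Of the markers of the stromal label, *DCN* and *OGN* were fixed by the rule, *COL1A2* and *LHX9* were found in most cells of both libraries, and *EFEMP1* marked only a small share of the cattle-yak cells.

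**Figure D2:**
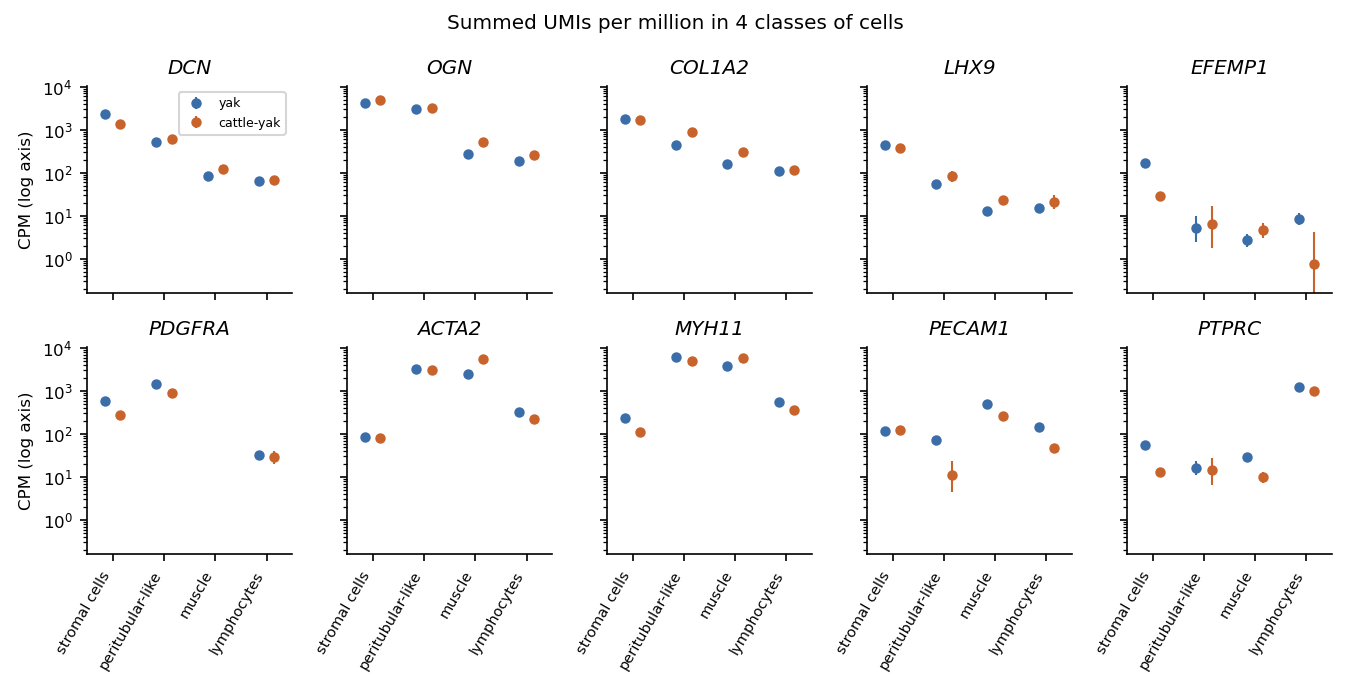
Level of 10 genes (CPM of summed UMIs, log axis) in stromal, peritubular-like, contractile muscle and lymphocyte reference cells of the yak and cattle-yak libraries, with exact Poisson 95% bars that cover counting error only. PDGFRA is not drawn for muscle cells, which were chosen for its absence. COL1A2 and LHX9 stand highest in the stromal cells of both libraries, and MYH11 in the contractile cells.

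Against all other cells of their library, the stromal cells were led by matrix genes. Since this contrast contains the rule, its values are a description and support nothing. Genes with at least 100 summed UMIs were compared, and those at a log2 ratio of CPM + 1 of at least 1 were counted. In yak 951 of 12888 genes passed (7.38%), and in cattle-yak 494 of 10749 (4.6%). Of the 10599 genes compared in both libraries 413 passed in both, which is 46.35% of the 891 that passed in yak and 88.25% of the 468 that passed in cattle-yak among them.

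The leading yak genes, by log2 ratio to the other cells, included *EFEMP1* (5.24), the matricellular gene *CCN5* (4.99), the collagen gene *COL28A1* (4.93), the retinol carrier *RBP4* (4.80), the antiangiogenic serpin *SERPINF1* (4.71), the prostaglandin E synthase gene *PTGES* (4.59) and the fibulin gene *FBLN1* (4.42). In cattle-yak they included *COL28A1* (3.59), the osteomodulin gene *OMD* (3.26), the lipase gene *LIPG* (3.09), *LHX9* and *RBP4* (both 3.02) and the calcium-binding matrix gene *SMOC2* (2.95). *COL28A1*, *RBP4* and *LHX9* stood in both leading sets. In the other cells *OGN* was at 289 CPM in yak and 450 CPM in cattle-yak. The rule used this gene, so these values are a description as well.

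Between the libraries, 7275 genes with at least 100 summed UMIs were compared in the stromal cells. The log2 ratio of cattle-yak to yak was at least 1 for 182 genes (2.5%) and at most -1 for 330 (4.54%). The median of all compared genes was -0.13. Relative to that median, 226 genes were higher and 254 lower. With mitochondrial and the 2 abundant features taken out of the totals, 281 were higher and 233 lower, so that the balance between higher and lower genes changed with the scale. Without the mixed cells 6090 genes could be compared, with a median of -0.24, and 86 were higher and 329 lower. Of the 182 higher genes 64 were among those 86 (35.16%), whereas 226 of the 330 lower genes were found again (68.48%). As a measure of free RNA, the share of cells with a UMI was set beside that of the reference cells. This bears only on genes that lymphocytes do not make, and in cattle-yak the reference cells also held the germ cell list at 849.5 CPM (583 in all cells outside the stromal ones) and the proliferation list at 1676 CPM (1064), so no gene was called background on this value alone. At 2000 UMIs per cell, 40.66% of the higher genes had a share of cattle-yak stromal cells at or below that of the reference cells, and 18.79% of the lower genes had such a share in yak. Over all compared genes these shares were 42.05% in cattle-yak and 40.51% in yak.

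**Figure D3:**
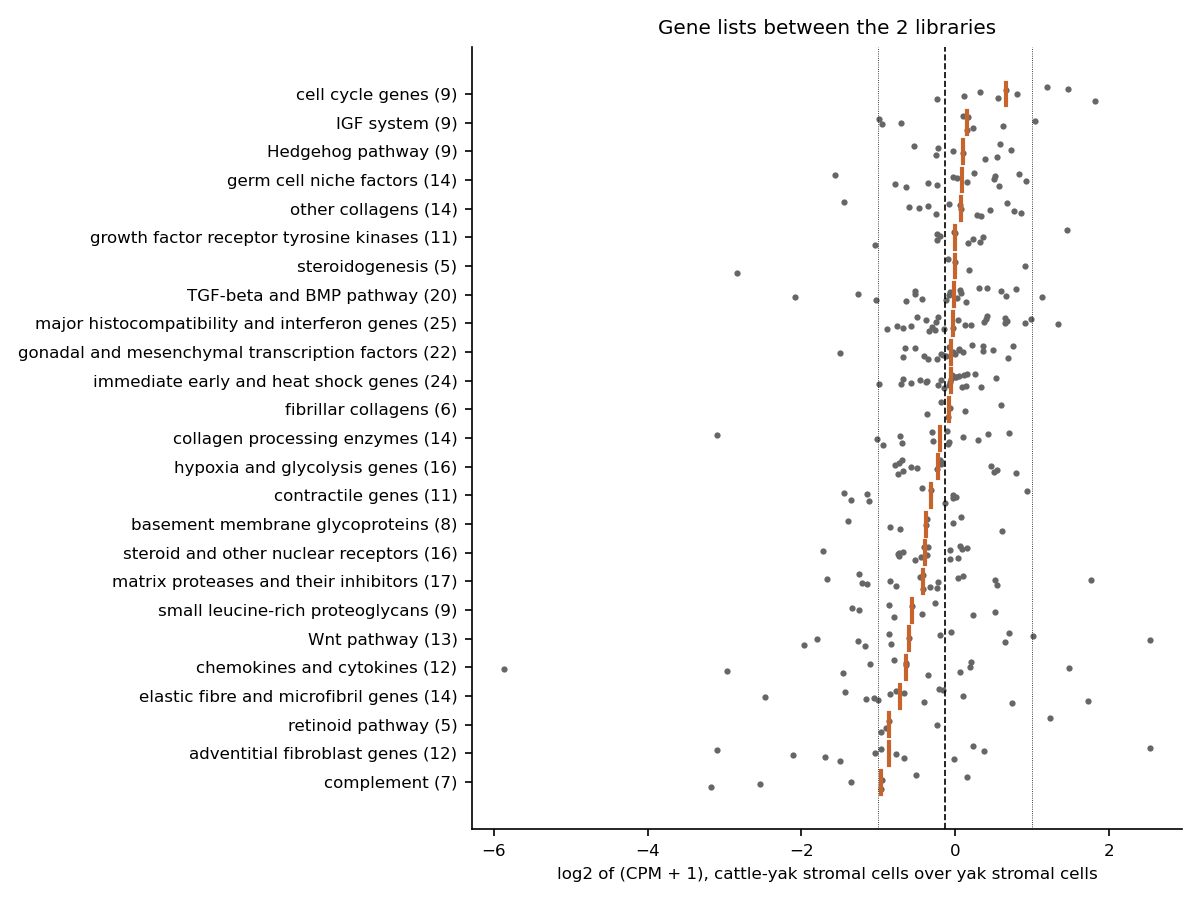
Log2 ratio of cattle-yak to yak stromal cells (CPM + 1 of summed UMIs, x axis) for every compared gene of each gene list (y axis, number of genes in parentheses). Orange bars are list medians, the dashed line is the median of all compared genes (-0.13) and the dotted lines are at -1 and 1. Fibrillar collagens lie near the dashed line, while most complement and adventitial genes lie below it.

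Over all compared genes 4.54% were lower and 2.5% higher, and the list counts between the libraries below stand beside these shares. A count of 1 or 2 genes in a list describes those genes and not the list. The matrix genes moved unevenly. Fibrillar collagens, which form the load-bearing fibrils, stood at similar levels, and 0 of 6 compared genes passed either limit (median log2 ratio -0.08, against -0.13 for all genes). *COL3A1*, the type III collagen gene, was at 826 CPM in yak and 641 in cattle-yak (log2 -0.37). *COL5A1* and *COL5A2*, chains of a collagen that helps to start fibrils, had ratios of 0.12 and -0.06. Of 14 other collagens 1 was lower and 0 higher, against 2 lower and 1 higher without the mixed cells. The lower one was *COL28A1*, at 565 CPM in yak and 206 in cattle-yak (log2 -1.45, interval -1.55 to -1.36). *COL4A4*, a basement membrane collagen, had the opposite sign, with 187 and 341 CPM (log2 0.86, and just past the limit without the mixed cells). *COL12A1*, a fibril-associated collagen, had a ratio of -0.60 that became -2.63 without them. Intervals of this kind are for the ratio of summed UMIs without the added 1, so that for genes near 0 they need not be centred on the printed value.

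Elastic fibre and microfibril genes had a median of -0.72. In cattle-yak 5 of 14 were lower and 1 higher, beside 4.54% and 2.5% of all genes. With the mixed cells left out the median of the list was -0.45, and 2 were lower and 2 higher. *FBLN1* stood at 1254 CPM in yak and 625 in cattle-yak, just past the limit, and *FBLN2*, another fibulin, at 454 and 202 (log2 -1.17). Without the mixed cells these log2 ratios were -0.79 and -0.92, and no longer past the limit, and that of the related *FBLN5* went from -1.05 to -0.92. *LTBP1*, which stores latent TGF-beta in the matrix, was at 131 and 47.8 CPM (log2 -1.43, and -1.23 without the mixed cells). *EFEMP1* had a ratio of -2.48, and -2.24 without them. The fibrillin gene *FBN2* was the higher one (7.6 and 27.6 CPM, log2 1.73). In contrast, *LTBP4*, found in 98.8% and 97.3% of the cells, was at 2323 and 2089 CPM (log2 -0.15). *ELN*, the elastin gene, had a ratio of 0.74, and 1.16 without the mixed cells. The list therefore gave no single direction.

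Small leucine-rich proteoglycans had a median of -0.57, with 2 of 9 lower and 0 higher, beside 4.54% and 2.5% of all genes. Without the mixed cells 1 was lower. The list holds *DCN* and *OGN*, and with both left out 2 of 7 were lower and the median was again -0.57. The lower ones were *ASPN*, the asporin gene (187 and 73.0 CPM, log2 -1.34), and *FMOD*, the fibromodulin gene (21.9 and 8.6 CPM, log2 -1.25), whose ratio was -0.88 without the mixed cells. *ECM2* and *BGN*, the biglycan gene, did not pass, with ratios of -0.26 and -0.43. *DCN* and *OGN* chose the cells, and their 2344 and 1345 CPM and 4290 and 5031 CPM are a description. Of 8 basement membrane glycoprotein genes 1 was lower, the laminin chain *LAMB2* (64.4 and 23.9 CPM, log2 -1.40), whereas *LAMB1* stood at 425 and 415 CPM (log2 -0.03).

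Of 14 collagen processing genes 2 were lower, beside 4.54% of all genes. *PCOLCE2*, an enhancer of procollagen trimming, was at 36.8 CPM in yak and 3.4 in cattle-yak (log2 -3.09), and the lysyl hydroxylase gene *PLOD2* at 38.7 and 18.7 (log2 -1.01). *LOX*, which cross-links collagen, did not pass (log2 -0.94). Among 17 genes of matrix proteases and their inhibitors, 4 were lower and 1 higher, and 4 of 16 lower and 0 higher without the mixed cells. The inhibitors *TIMP1* (1179 and 531 CPM, log2 -1.15) and *TIMP2* (1098 and 472 CPM, log2 -1.22) were lower, as were *RECK*, a membrane-bound inhibitor, and the aggrecanase *ADAMTS5*. Each of these 4 kept a ratio of -1.12 or less without the mixed cells. *ADAMTS4*, a related aggrecanase, was higher (144 and 492 CPM, log2 1.77), but its ratio without the mixed cells was 0.19.

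Among growth factor receptors, *PDGFRA*, the platelet-derived growth factor receptor of mesenchymal cells, had a UMI in 81.5% of yak and 55.3% of cattle-yak stromal cells, at 585 and 283 CPM (log2 -1.04). Its thinned shares were 60.5% and 45.0%, beside 3.3% and 4.6% of reference cells. Its ratio was -0.81 without the mixed cells. The related *PDGFRB* stood at 314 and 352 CPM (log2 0.16). *PDGFRA* was the only lower one of 11 compared receptor tyrosine kinases, and *KDR*, an endothelial receptor (35.2 and 98.2 CPM), the only higher one. Only 6 could be compared without the mixed cells, and 0 were past either limit. *KDR* sat in the endothelial-led clusters described below, at 400.3 CPM in cattle-yak cluster 5 against 6.92 in the other cattle-yak stromal cells, and at 254.3 against 2.91 for yak cluster 7. *NTRK2*, a neurotrophin receptor, stood at 233 and 203.5 CPM (log2 -0.19).

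In the insulin-like growth factor system 1 of 9 genes passed, and the median was 0.15. With the mixed cells left out 0 of 8 passed, and the median was -0.05. *IGF1*, the growth factor itself, was at 310 CPM in yak and 345 in cattle-yak (log2 0.15), and had a UMI in 60.4% and 65.5% of the stromal cells. *IGFBP6*, a binding protein with preference for IGF2, was at 6244 and 3149 CPM (log2 -0.99), and *IGFBP4* at 198 and 121 (log2 -0.71). The one past the limit was *IGFBP5*, another binding protein (13.0 and 27.8 CPM, log2 1.04). Its share of thinned cells, 1.5% in yak and 2.2% in cattle-yak, was close to the 1.9% of the reference cells in both, so that no difference was read from it.

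Genes for steroid synthesis were rare in the stromal cells. Of 22 listed genes 13 carried a name in the annotation and 5 were compared. *CYP11A1*, the enzyme that cleaves the cholesterol side chain, was the only one to pass, at 67.5 CPM in yak and 8.6 in cattle-yak, a log2 ratio of -2.83, and it had a UMI in 15.7% and 1.9% of the stromal cells. *STAR*, which carries cholesterol into mitochondria, had 8 and 27 UMIs. Summed, the 13 named genes came to 158 CPM in yak and 123 in cattle-yak stromal cells, beside 111 and 66.6 CPM in the reference cells. Of 13 named retinoid genes 3 were seen in at least 20% of yak stromal cells and 1 in as many cattle-yak ones. These cells were not thinned, and over all features the numbers were 2393 in yak and 1481 in cattle-yak, so no difference was read from this count. *RBP4* had a UMI in 86.3% of yak and 77.5% of cattle-yak stromal cells (1150 and 635 CPM, log2 -0.86), *ALDH1A2*, which makes retinoic acid, in 38.6% and 18.1% (log2 -0.97), and *CYP26B1*, which breaks it down, in 21.3% and 15.7% (log2 -0.24). None of these 3 genes reached the limit. The thinned shares of *RBP4* were 73.4% and 65.9%, beside 3.1% and 2.7% of reference cells. Of the 5 retinoid genes compared 1 was higher, the binding protein gene *CRABP1*, with 15 UMIs in yak and 106 in cattle-yak (log2 1.23). Of the 4 that could be compared without the mixed cells 0 passed.

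Of 22 compared transcription factors of mesenchyme and gonad 1 was lower and 0 higher, near the 4.54% and 2.5% of all genes, and the median was -0.06. *PRRX1*, a homeobox factor of mesenchyme, was lower (127 and 44.4 CPM, log2 -1.50). *OSR1*, of urogenital mesenchyme, was at 174 and 170 CPM (log2 -0.03), *OSR2* at 155 and 167 (log2 0.10), and *EMX2*, of the early gonad, at 138 and 85.8 (log2 -0.68). *EBF1*, known from B cells and stromal cells, stood at 242 and 407 CPM (log2 0.75). *SOX9*, known as a Sertoli cell factor, had a UMI in 20.4% of yak and 24.7% of cattle-yak stromal cells (68.2 and 136 CPM, log2 0.98), and its thinned share was 12.1% and 18.3% against 1.2% and 1.9% of reference cells. *DHH* and *FSHR*, which mark Sertoli cells, were at 0 in the stromal cells of both libraries.

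Nuclear receptors had 1 lower gene of 16 and a median of -0.39, and 2 lower of 13 without the mixed cells. A share of this size is near the 4.54% of all genes, so the values that follow describe single genes and not the list. *NR2F2*, known in interstitial progenitors, had a UMI in 79.3% and 54.7% of the stromal cells (424 and 254 CPM, log2 -0.73). The lower one was *NR4A2*, an early response receptor (239 and 72.2 CPM, log2 -1.72). It had a UMI in 22.8% and 9.7% of thinned stromal cells and in 75.8% and 64.6% of reference cells, where it was common, so that free RNA was not tested for this gene.

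In the Hedgehog pathway, which carries signals from Sertoli cells to the interstitium, 0 of 9 compared genes passed and the median was 0.10. *PTCH1*, a receptor that is also a target of the pathway, was at 77.4 and 102 CPM (log2 0.39), and the factor *GLI1* at 23.5 and 19.6 (log2 -0.25). Against the other cells of their library, 9 of 11 genes of the list in yak and 10 of 11 in cattle-yak were higher, beside 7.38% and 4.6% of all genes. That contrast contains the rule and is a description.

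In the Wnt pathway 4 of 13 genes were lower and 2 higher, beside 4.54% and 2.5% of all genes. The median of the list was -0.60. Leaving out the mixed cells, 2 of 11 were lower, 1 higher, and the median was -0.35. The ligands *WNT5B* (57.7 and 14.1 CPM, log2 -1.96) and *WNT2B* (45.0 and 19.4 CPM, log2 -1.18) were lower, and the ratio of *WNT2B* was -0.79 without the mixed cells. So were *RSPO3*, which amplifies Wnt signals (log2 -1.26), and the inhibitor *DKK2* (log2 -1.80). *SFRP1*, a secreted Wnt inhibitor, was higher. It had 30 UMIs in 11 yak cells and 506 UMIs in 309 cattle-yak cells, or 9.5 and 59.8 CPM (log2 2.53, interval 2.12 to 3.23). Without the mixed cells its ratio was 2.57. Thinned to 2000 UMIs it was found in 1.0% of yak and 10.6% of cattle-yak stromal cells, and in 0% of cattle-yak reference cells. The receptor gene *FZD4*, the other higher one, had a ratio of 1.02 that turned to -0.35 without the mixed cells.

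Of 20 TGF-beta and BMP genes 3 were lower and 1 higher, and without the mixed cells 1 of 17 was lower and 1 higher. Over all genes 4.54% were lower and 2.5% higher. The counts of the list rest on few genes, and nothing was read from them about the list. *TGFBR2*, a TGF-beta receptor, was at 534 and 262 CPM (log2 -1.02, and -1.45 without the mixed cells). *BMP6*, a ligand, and *CHRDL1*, a BMP antagonist, were also lower, at 21.2 and 4.3 CPM and at 21.6 and 8.4 CPM. The ratio of *CHRDL1* was -0.66 without the mixed cells. *INHBA*, a subunit of activin A, was higher at 77.1 and 169 CPM (log2 1.12, and 1.42 without the mixed cells), with a UMI in 19.6% of yak and 33.8% of cattle-yak stromal cells.

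Complement genes had a median of -0.96, and -0.74 without the mixed cells. Of 7 compared 3 were lower either way, beside 4.54% of all genes with the mixed cells kept. *C7*, of the lytic complex, was at 537 CPM in yak and 210 in cattle-yak (log2 -1.35). *C3*, the central component, was at 106 and 17.5 CPM (log2 -2.54), and *C2* at 32.7 and 2.7 (log2 -3.18). The protease *C1S* (log2 -0.96) and its inhibitor *SERPING1* (2402 and 1245 CPM, log2 -0.95) did not pass. All these genes had the same sign, while 2 of the 5 lay just inside the limit.

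Of 12 chemokine and cytokine genes 4 were lower and 1 higher, beside 4.54% and 2.5% of all genes. *CCL19*, a chemokine of lymphoid stroma, had 1071 UMIs in yak and 41 in cattle-yak (340 and 4.8 CPM, log2 -5.87). It rested on few cells. In yak 50 stromal cells had a UMI, 1 cell held 555 of them, and the highest 5 cells held 76.94%. *CXCL9*, an interferon-induced chemokine, was at 145 and 52.2 CPM (log2 -1.46), and the receptor gene *IL1R1* at 52.6 and 23.9 (log2 -1.11). *CCL5*, a T and NK cell chemokine, was also lower (log2 -2.97), with thinned shares of 10.6% and 2.5% against 80.3% and 70.7% of reference cells. It sat mostly in a leukocyte-led cluster described below, at 1980 CPM in yak cluster 5 against 43.75 in the other yak stromal cells. For cattle-yak cluster 6 it was at 490 against 8.67 CPM. *CCL21*, the higher one (log2 1.48), had 46.88% of its cattle-yak UMIs in 5 cells. *CXCL12*, which retains stem cells and leukocytes, stood at 278 and 218 CPM (log2 -0.35).

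Genes known from adventitial fibroblasts, the fibroblasts around vessels, had a median of -0.86. Of 12 compared 5 were lower and 1 higher, beside 4.54% and 2.5% of all genes. The median of the list was -0.85 without the mixed cells, with 4 lower and 1 higher. The list holds *OGN*, which chose the cells, and with *OGN* left out 5 of 11 were lower, 1 was higher and the median was -0.96. *GSN*, the gelsolin gene, was at 1542 CPM in yak and 358 in cattle-yak (log2 -2.10, interval -2.17 to -2.04), and had a UMI in 90.7% and 62.3% of stromal cells. Thinned, these shares were 80.3% and 50.6%, beside 13.9% and 9.5% of reference cells. *SEMA3C*, a guidance ligand (log2 -1.69), *PI16*, a marker of such fibroblasts (log2 -1.50), *PCOLCE2* (log2 -3.09) and the surface antigen gene *THY1* (log2 -1.05) were lower as well. Without the mixed cells the ratio of *THY1* was -0.97. *CD34*, found on endothelium and on adventitial fibroblasts, was at 83.7 and 82.9 CPM (log2 -0.01), and *SFRP1* was the higher one.

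Apart from *CCL19*, low ratios of cattle-yak to yak were found for *RARRES1*, a retinoid-induced gene (141 and 6.4 CPM, log2 -4.27), *SERPINF1* (167 and 11.8 CPM, log2 -3.71), *ABCA10*, a lipid transporter family member (234 and 17.8 CPM, log2 -3.64), and *CCN5* (198.5 and 17.9 CPM, log2 -3.40). Each kept a ratio of -3.13 or less without the mixed cells. *RARRES1* had a UMI in 161 yak cells and 37 cattle-yak cells, so that it was not carried by a few cells. *IZUMO4*, *YBX2* and *LCA5L*, of which the first 2 are known from germ cells, also had low ratios (-4.16, -3.74 and -3.73), but their thinned shares in yak stromal cells (5.0%, 5.8% and 6.0%) were near or below those of reference cells (4.5%, 5.6% and 10.2%). *A2M*, a protease inhibitor gene, stood at 1396 and 369 CPM (log2 -1.92). Without thinning it was seen in 86.9% of yak and 55.6% of cattle-yak stromal cells.

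Among the genes with the highest ratios, *CHGA*, the chromogranin A gene of secretory granules, had 9 UMIs in yak and 308 in cattle-yak (2.9 and 36.4 CPM, log2 3.28, interval 2.73 to 4.82). They lay in 141 cattle-yak cells, and the ratio without the mixed cells was 3.42. *EXOC3L2* (1 and 145 UMIs, log2 3.78, interval 3.25 to 11.07) had a ratio of 1.93 without the mixed cells. *KLRF2* and *SLPI* were also among the 15 highest ratios, and both led clusters of mixed cells described below. *KLRF2* was at 62.1 CPM in cattle-yak cluster 5 against 0.62 in the other cattle-yak stromal cells, and *SLPI* at 469 in cluster 8 against 3.68. *UCHL1*, an ubiquitin hydrolase known in germ cells and neurons, was at 19.0 and 114 CPM (log2 2.52, and 2.28 without the mixed cells). Its thinned share in cattle-yak was 8.4%, beside 10.3% of the reference cells, whose germ cell list was high. Of the proliferation genes 3 of 9 were higher (median 0.66), beside 2.5% of all genes, and 1 of 8 without the mixed cells (median 0.33). The topoisomerase gene *TOP2A* was at 21.2 and 77.5 CPM. Only 78 cattle-yak cells had a UMI of *TOP2A*, and 5 cells held 45.43% of its UMIs in cattle-yak and 86.57% in yak. In thinned cattle-yak stromal cells its share was 2.6%, beside 12.6% of reference cells.

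Some lists had few or no genes past the limit with all cells, but not in each case without the mixed ones. Of 24 immediate early and heat shock genes 0 passed in either direction (median -0.06). Leaving out the mixed cells, 3 of 23 were lower (median -0.21). These were the early response genes *ATF3* (log2 -1.55), *DUSP1* (-1.05) and *NR4A1* (-1.05). *FOS* and *JUN*, early response factors that also rise during tissue dissociation, stood at 2527 and 2281 CPM and at 4600 and 5074 CPM. They were seen in about the same share of thinned stromal and reference cells, for *FOS* 77.7% and 78.2% in yak. Of 16 hypoxia and glycolysis genes 0 passed (median -0.22, and -0.51 without the mixed cells, where 0 of 15 passed). Of 25 major histocompatibility and interferon genes 1 was higher, beside 2.5% of all genes. It was the antiviral gene *MX1* (log2 1.34, and 0.77 without the mixed cells). Without them 3 of 21 were lower and 1 higher (median -0.23), the higher one being *GBP2*, an interferon-induced GTPase gene (log2 1.04).

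Genes of the germ cell niche had a median of 0.09, with 1 of 14 lower and 0 higher, and with 1 of 11 lower and 2 higher without the mixed cells. *PTN*, the growth factor pleiotrophin, had a UMI in 59.4% of yak and 85.6% of cattle-yak stromal cells (665 and 953 CPM, log2 0.52, interval 0.45 to 0.59). At 2000 UMIs per cell its shares were 47.8% and 76.5%, beside 5.9% and 9.1% of reference cells. *ANGPT1*, a vessel-stabilising ligand, was the lower one (42.5 and 13.7 CPM, log2 -1.56). *ANGPT2*, its competitor at the same receptor, stood at 62.8 and 113 CPM (log2 0.84, and 1.34 without the mixed cells), and the endothelial growth factor gene *VEGFA* at 105 and 150 CPM (log2 0.51).

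Markers of other cell types were summed over each list. In the stromal cells the T and NK cell list came to 368 CPM in yak and 75.6 in cattle-yak, with *CCL5* as its most abundant gene. The blood endothelial list came to 345 and 502 CPM, led by *PECAM1* in yak and *EMCN* in cattle-yak, beside 1011 and 894 CPM in the other cells. The germ cell list came to 75.5 and 144 CPM (other cells 672 and 583), led by *UCHL1* in both libraries. The Leydig list came to 71.7 and 27.3 CPM, led by *CYP11A1* in yak and *DLK1* in cattle-yak, the macrophage list to 40.0 and 15.5, and the pericyte list to 502 and 845, led by *PDGFRB*. The Schwann list came to 771 and 422 CPM through *PMP22* and *NCAM1*, while the defining *SOX10* was at 0. *NCAM1*, a neural adhesion gene also made by mesenchyme, was at 250 and 58.5 CPM (log2 -2.08). The Sertoli list came to 90.1 and 166 CPM, the epithelial list to 229.6 and 207.5 with *KRT18* at 204 and 186, and the lymphatic endothelial list to 116 and 126. The mesothelial (34.9 and 57.1), adipocyte (25.4 and 8.4), B cell (10.5 and 7.0) and mast cell (2.2 and 7.0) lists were low. These sums were uneven over the clusters described below. In cattle-yak the pericyte list came to 2446 CPM in cluster 5 and 4406 in cluster 7 but to 246 to 358 in clusters 1 to 4, while yak clusters 1 to 4 had 558, 335, 313 and 811 CPM. The endothelial list came to 1849 CPM in cattle-yak cluster 5, and the germ cell list to 2678 in the 9 cells of cluster 8. In yak the T and NK cell list came to 3454 CPM in cluster 5. The median ratio of the pericyte genes was 0.52 over the 6 compared with all cells, and -0.48 over the 4 that could be compared without the mixed cells. Their part in the ratios between libraries was not tested beyond the values without the mixed cells.

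The smooth muscle list came to 1862 CPM in yak and 870 in cattle-yak. *TAGLN*, an actin-binding protein gene, was at 1256 and 488 CPM (log2 -1.36), and *MYH11* at 238.5 and 109 (log2 -1.12). *MYH11* was at 559 and 370 CPM in the reference cells, above the stromal cells of the same library, and its thinned shares were 26.1% and 14.4% of stromal cells beside 24.2% and 11.8% of reference cells. No expression was read from it. Of the contractile list 4 of 11 genes were lower in cattle-yak and 0 higher, and without the mixed cells 4 of 10 were lower and 1 higher. The list holds *ACTA2*, which chose the cells, and without it 4 of 10 were lower. Summed, it came to 2364 and 1309 CPM in the stromal cells, below the 2859 and 1757 CPM of the reference cells, and the smooth muscle list to less than the 2130 and 1274 CPM there, so that no expression was read from these lists either.

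A second comparison set the stromal cells beside the peritubular-like cells of the same library, which are known here from *PDGFRA* and *ACTA2* alone and not from their place in the tissue. These also held the epithelial list at 1432 and 1580 CPM, beside 229.6 and 207.5 CPM in the stromal cells. *ACTA2* was used by both definitions and *PDGFRA* by one, so that a lower *ACTA2* or *PDGFRA* is no finding, and genes that go with *ACTA2* were bound to follow. Of 4889 genes compared in both libraries, 105 were higher in the stromal cells of both (2.15%) and 115 lower in both (2.35%). Only 2 genes were higher in yak and lower in cattle-yak, and 3 the reverse. The cattle-yak peritubular-like values rest on 88 cells.

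Among the genes higher in the stromal cells, with log2 ratios for yak and then cattle-yak, were *MFAP5*, a microfibril gene (5.34 and 2.60), *EFEMP1* (4.72 and 2.00), *CBLN2*, a secreted cerebellin (3.67 and 2.72), *RBP4* (2.93 and 2.44), *GPC3*, a cell surface proteoglycan gene (3.06 and 2.31), *LHX9* (3.00 and 2.20), *CCN5* (3.10 and 2.17) and *PTN* (2.15 and 2.21). *SEMA3C* had 2.12 and 3.81. Of the 7 adventitial genes compared 5 were higher in both libraries. Of the 5 fibrillar collagens 2 were higher in both, and *COL1A2* had ratios of 2.00 and 0.92. Other matrix lists were mixed. Of 13 other collagens 2 were higher and 2 lower in both libraries, of 13 elastic fibre genes 2 were higher and 1 lower, of 7 basement membrane genes 1 was higher, and of 13 matrix proteases and inhibitors 0 passed either way.

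Among the genes lower in the stromal cells were *TNNI1*, a troponin (-5.19 and -6.65), *MYH11* (-4.72 and -5.48), the enteric actin *ACTG2* (-4.66 and -4.98), the tropomyosin *TPM2* (-4.63 and -4.47) and the calponin *CNN1* (-4.08 and -4.79). Of 11 contractile genes 10 were lower in both. *ACTA2*, which both definitions used, was left out of these counts. Genes outside the contractile list were lower too. *COL4A3* had ratios of -1.98 and -2.42 and *COL4A4* of -1.56 and -1.66, both being chains of one basement membrane collagen. *CYP11A1* had -2.29 and -4.53, and *KRT18*, a keratin of simple epithelia, -2.79 and -3.06. Other genes did not pass the limit in either library, among them *SMOC2* (0.06 and 0.07), *OSR1* (-0.16 and -0.15) and *TCF21* (-0.46 and -0.65).

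**Figure D4:**
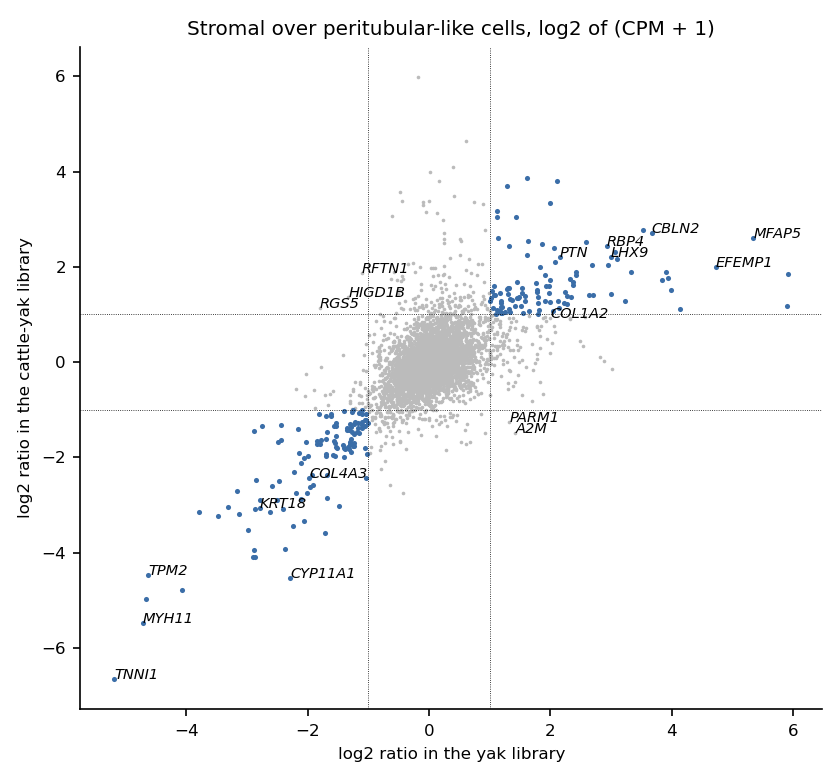
Log2 ratio of stromal to peritubular-like cells (CPM + 1 of summed UMIs) in the yak library (x axis) and in the cattle-yak library (y axis) for the 4889 genes compared in both. Blue points are the 105 genes higher and 115 genes lower in both libraries. Contractile genes such as MYH11 and TNNI1 lie at the lower left, and LHX9, RBP4 and PTN at the upper right.

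Within each library the stromal cells were clustered on variable genes to see how they vary among themselves. The genes that lead a cluster were found from the same cells, so they describe it and no more. Clusters are given by number and carry no cell type name. In yak there were 7 clusters of 35 to 158 cells, and in cattle-yak 8 clusters of 9 to 750.

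Yak cluster 1 (158 cells) was led, among named genes, by *CHI3L1*, a secreted chitinase-like protein, with *IGFBP3*, *CBLN2* and the adhesion gene *VCAM1*, and held *PTN* at 1700 CPM. Its *CCL19* level, 1353 CPM, came from 17.72% of its cells and includes the cell with 555 UMIs. Cluster 2 (142 cells) was led by the monoamine transporter *SLC18A2* and the tissue factor gene *F3*, and cluster 3 (131 cells) by *MATN2*, *COL4A3* and *EFEMP1*. *CYP11A1* was at 151 CPM in cluster 2 and 137 in cluster 3, and *PDGFRA* at 1036 CPM in cluster 3. Cluster 4 (98 cells) was led by *DKKL1*, known from spermatids, and *MLF1*, and its germ cell list came to 182 CPM. Cluster 6 (37 cells) was led by *PARM1*, *RARRES1* and *COL12A1*, and had *LHX9* at 1400 CPM.

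In cattle-yak the 750 cells of cluster 1 were led by *COL4A3*, *COL28A1*, the laminin chain *LAMA1* and *COL4A4*, with *OGN* at 9033 CPM. The 685 cells of cluster 2 were led by *ICAM5*, *INHBA*, the ephrin receptor *EPHA3* and *NRK*, with *VEGFA* at 259 CPM. Cluster 3 (345 cells) was led by *PTGES*, *DPEP1*, *SMOC2* and *KRT18*. Cluster 4 (213 cells) was led by *C3*, *CHGA*, *F3* and *CPE*, and further down by *SVEP1*, *IGFBP3* and *CBLN2*. It shared 4 of its 12 leading genes with yak cluster 1, the largest overlap between libraries outside the clusters of mixed cells. Yak cluster 6 and cattle-yak cluster 3 shared 3 of 12, *OMD*, *S100A4* and an unnamed feature, and yak cluster 3 and cattle-yak cluster 1 shared 2, *COL4A3* and *MATN2*.

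The leading genes of a few clusters went against the stromal label. Yak cluster 5 (41 cells, 38 of them mixed) was led by *CCL5*, *LCP1*, *RGS1* and *PTPRC*, genes of leukocytes, and cattle-yak cluster 6 (58 cells, 35 mixed) shared 8 of those 12 leading genes. Stromal genes were also present in these clusters. *COL1A2* was at 2427 CPM in yak cluster 5 and 1343 in cattle-yak cluster 6, against 1761 and 1715 in the other stromal cells of each library. *OGN* was at 3302 and 4165 CPM, against 4375 and 5061. Yak cluster 7 (35 cells, 29 mixed) and cattle-yak cluster 5 (130 cells, 118 mixed) were led by endothelial genes such as *CDH5*, *ROBO4*, *KDR* and *PECAM1*, and shared 6 of 12. Cattle-yak cluster 5 had a median of 14918.5 UMIs and held 23.19% of all UMIs of the cattle-yak stromal cells. In it *OGN* was at 676 CPM and *COL1A2* at 316 CPM. Cattle-yak cluster 8 (9 cells, all mixed) was led by *DMRT1* and *MAEL*, known from germ cells, with a median of 33500 UMIs. Cattle-yak cluster 7 (24 cells, 0 mixed) was led by *RRAD* and *ANO3*, and had *RGS5*, a pericyte gene, at 1658 CPM. Whether the cells of these clusters are doublets, free RNA or cells of another type was not tested.

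**Figure D5:**
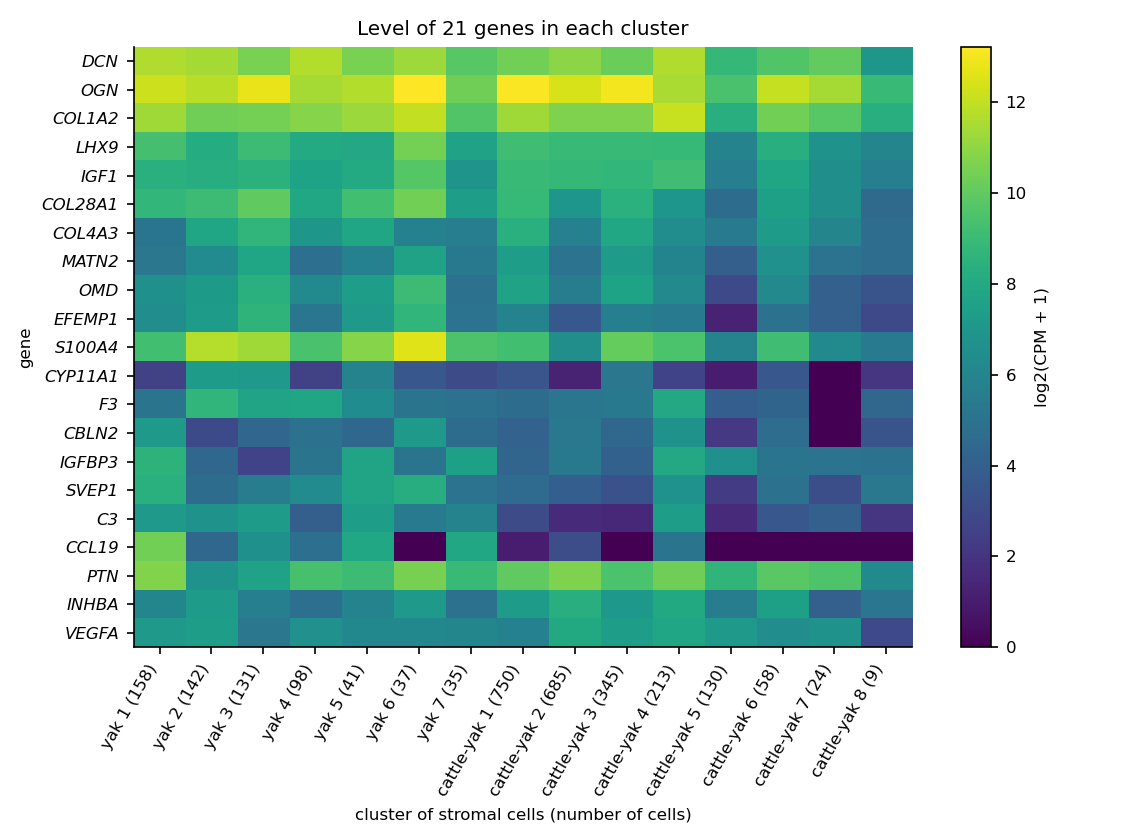
Level of 21 genes (rows), chosen after their values were seen, as log2 of CPM + 1 (colour) in the 7 yak and 8 cattle-yak clusters of stromal cells (columns, with the number of cells). OGN and COL1A2 are lower in cattle-yak cluster 5 than in cattle-yak clusters 1 to 4, and CCL19 is highest in yak cluster 1, which includes the cell with 555 of its UMIs.

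The number of genes commonly seen was read at equal total UMIs. In 605 yak stromal cells with 2000 UMIs or more, thinned to that number, 998 genes had a UMI in at least 20% of cells, and in 1925 cattle-yak cells 820 did. The 37 yak and 289 cattle-yak cells below that depth were left out. In the reference cells the numbers were 894 in yak and 802 in cattle-yak, and in peritubular-like cells 1090 and 985. The mitochondrial and the 2 abundant features, which differ between the libraries as given above, are part of the 2000 UMIs, so that fewer of them are left for other genes in cattle-yak stromal cells. The numbers of the libraries were therefore not compared.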

How the data were processed

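Cells came from 1 yak and 1 cattle-yak testis library. The authors deposited UMI counts per gene and cell, whole numbers that were not normalized, after alignment to a yak genome. The labels name Cell Ranger 2.1.1, the file header 5.0.0 and the paper another version, so the version is uncertain. The files hold 26961 features, and 0 columns of other series.

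Counts were summed over the cells of each kind and scaled to CPM over all features. Ratios are log2 of CPM + 1. Genes needed at least 100 summed counts, and a log2 ratio of 1 in size was the limit for a call. Intervals at 95% were exact (Poisson, conditional binomial for ratios, Clopper-Pearson for shares). No replicate exists, so no test was made. Thinning drew 2000 UMIs per cell (seed 0). Clustering used scanpy 1.11.5 (1000 variable genes, 20 components, 15 neighbours, Leiden resolution 0.6) in each library, with numpy 2.4.6 and scipy 1.17.1 under Python 3.11.15. The sums were tested on simulated data. No doublet caller was applied to the cells as reported, and leaving out the highest 10% of Scrublet scores was an alternative. *CD3E* matched no symbol, so the lymphocyte reference used *PTPRC* and *NKG7*.

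The stromal cells and the 41 gene lists were chosen with earlier results of these data known. Of 702 list entries 571 were named in the annotation. Genes named in the text were drawn, by rule, from the most abundant or called members of each list, the 15 highest ratios to other cells, the 15 highest and lowest ratios between libraries, the 12 highest and lowest ratios to peritubular-like cells, and the 4 leading genes of each cluster. *A2M*, *STAR*, *TCF21*, *ELN*, *COL12A1*, *ATF3*, *DUSP1*, *NR4A1*, *GBP2* and further genes beside cluster leaders were named after their values were seen. Alternatives without the mixed cells, and with mitochondrial and the 2 abundant features out of the totals, were chosen after seeing the data. A few genes that these rules named are not reported here.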

Additional observations from a re-analysis of the deposited data

Results flagged for a closer look

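The ratio of stromal to peritubular-like cells had opposite signs in the 2 libraries, past the limit in both, for 5 genes. The difference between libraries was not tested, since each kind of animal has 1 library, and the cattle-yak peritubular-like values come from 88 cells. *RGS5*, a pericyte gene, had a log2 ratio of -1.805 in yak and 1.142 in cattle-yak, and *HIGD1B*, also known from pericytes, -1.332 and 1.361. *RFTN1*, a lipid raft gene, had -1.112 in yak and 1.877 in cattle-yak. *A2M* had 1.422 in yak and -1.491 in cattle-yak, and *PARM1*, an androgen-regulated membrane gene, 1.32 and -1.249. Beside these values, *RGS5* stood at 1658 CPM in the 24 cells of cattle-yak cluster 7 and at 199.8 CPM in the other cattle-yak stromal cells. Cluster 7 held 1.496% of the UMIs of these cells, and cluster 5, with the pericyte list at 2446 CPM and 118 of 130 cells mixed, 23.19%. In addition, *RFTN1* was seen in 2.0% of thinned cattle-yak stromal cells against 11.8% of reference cells.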

How the results depend on the processing

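The share of stromal cells was higher in the cattle-yak library under all rules tried, and moved with them. In yak and cattle-yak it was 3.824% and 14.21% with at least 20 UMIs of *DCN* and *OGN*, 7.522% and 40.05% with at least 5, 4.112% and 22.7% with *ACTA2* at 0, 7.621% and 31.12% with *ACTA2* up to 10, 7.954% and 36.51% with the rule in CPM of the cell, and 5.093% and 26.88% without the mixed cells. In cattle-yak it was 30.12% for cells within 2 SD of the mean genes and UMIs, 30.95% under a 20% mitochondrial limit and 25.83% without one. The 182 genes higher in cattle-yak became 73 with at least 20 UMIs of *DCN* and *OGN*, 103 within 2 SD, 66 after thinning, 86 without the mixed cells and 281 without mitochondrial and abundant features in the totals. A minimum of 20 counts gave 468 higher and 849 lower genes between libraries, and 263 higher and 233 lower than peritubular-like cells. A minimum of 500 gave 49 and 105 between libraries, 37 and 42 against peritubular-like cells, and 549 (yak) and 268 (cattle-yak) against other cells. A log2 limit of 2 gave, in the same order, 48 and 65, 15 and 33, and 324 and 122. Genes seen in at least 20% of cells were 460 and 362 at 1000 UMIs and 2393 and 1481 without thinning. Clusters numbered 4 and 5 at resolution 0.3, and 11 and 14 at 1.0. In the log2 ratio of cattle-yak to yak stromal cells, *FZD4* turned from 1.02 to -0.058 with cells weighted equally and to -0.35 without the mixed cells, and *HIGD1B* from 1.21 to -0.56 without them. Of 93 listed genes called between libraries, 73 were still called without the mixed cells and 91 without the highest Scrublet scores. No paired analysis was possible because each group has 1 library. With 1 library per group, no replicate could be left out.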
